A study of Mus musculus with 68 samples.

Results

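The globin genes described here are the 7 rows Hba-a1, Hba-a2, Hba-x, Hbb-b1, Hbb-b2, Hbb-bh1 and Hbb-y, chosen by their symbols among 24059 gene rows and followed through 68 RNA libraries of sorted mouse bone marrow cells. The stage series holds 38 libraries of erythroid gates along maturation: BFU-E and CFU-E progenitors, then ERY-I to ERY-VI, which the labels equate with proerythroblasts, basophilic, polychromatic and orthochromatic erythroblasts, reticulocytes and red blood cells. It has 3 BFU-E, 5 CFU-E, 7 ERY-I, 7 ERY-V and 4 libraries of each other gate. The other 30 libraries form the knockout series, with 3 wild-type (WT) and 3 GS-KO libraries in each of 5 gates: both progenitor gates, then ERY-I-II, then ERY-III-VI and last ERY-V-VI. The labels give no treatment and do not spell out GS, taken here as glutamine synthetase, the product of Glul. Strain, age, the knockout allele, the cells in which it acts and the number of mice were not given in the sources used here. Replicates are therefore libraries, and p-values measure only how libraries vary, which may be technical variation.

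Hemoglobin carries oxygen in red cells as a tetramer of alpha-like and beta-like chains, each holding a heme. In the mouse, Hba-x (zeta), Hbb-y (epsilon y) and Hbb-bh1 (beta h1) serve the primitive red cells of the embryo, while Hba-a1, Hba-a2, Hbb-b1 and Hbb-b2 serve the definitive cells that mature in fetal liver and bone marrow. Each family sits in a cluster with a distant enhancer region, and factors such as GATA1, KLF1 and NF-E2 raise the adult genes as precursors mature, while BCL11A and SOX6 help keep the embryonic genes low.

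On build GRCm38 (mm10) the GENCODE M21 annotation places the alpha-like genes on the plus strand of chromosome 11, with Hba-x at chr11:32276400-32278116, Hba-a1 at chr11:32283511-32284465 and Hba-a2 at chr11:32296489-32297298. The embryonic beta-like genes lie on the minus strand of chromosome 7, with Hbb-bh1 at chr7:103841637-103843164 and Hbb-y at chr7:103851749-103853216. Each has 3 exons in its first listed transcript. Hbb-b1 and Hbb-b2 are not names of that annotation, which lists the adult beta genes of the reference strain as Hbb-bs (chr7:103826534-103828096) and Hbb-bt (chr7:103812524-103813996). The RefSeq table of GRCm38.p6 lists Hbb-b1 and Hbb-b2 apart from the other beta-like genes, and which gene of mm10 their rows counted was not resolved.

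The adult copies of the GENCODE annotation are close to identical in sequence, which bears on every value for a single copy. For beta only Hbb-bs and Hbb-bt were compared, and the likeness of Hbb-b1 and Hbb-b2 themselves was not checked. Hba-a1 and Hba-a2 differ at 1 of 429 coding bases, C381T, counted from 1 at the first coding base with the Hba-a1 base first. The coding stretch around that base, from positions 366 to 396 and with the differing base in capitals, shows how little separates the copies:
Hba-a1: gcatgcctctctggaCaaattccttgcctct
Hba-a2: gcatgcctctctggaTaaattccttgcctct
Hbb-bs and Hbb-bt likewise differ at 1 of 444 coding bases. Of all 50-base windows of its transcript, 67.5% in Hba-a1, 86.9% in Hba-a2, 65.8% in Hbb-bs and 58.3% in Hbb-bt also occur in another globin transcript, against 0% in the 3 embryonic genes. The authors' treatment of reads that fit several places was not given in the sources used here, so the split between Hba-a1 and Hba-a2, or between Hbb-b1 and Hbb-b2, is uncertain. Sums over the alpha or beta copies do not depend on how shared reads were split, but if such reads were left out the sums are too low, and by unequal amounts for alpha and beta. The embryonic genes are distinct, with 62.0% coding identity between Hba-x and Hba-a1 and 76.4% between Hbb-bh1 and Hbb-y.

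Since the adult genes rose together in the libraries, the 120 bases before the RefSeq start (GRCm38.p6) of an adult alpha, an adult beta and an embryonic beta gene are shown, with these letters in capitals on either strand: CACCC, the letters that KLF1 and its relatives bind, the CCAAT box, GATAA as the core of a site for GATA factors, and TATAA as well as its shifted form ATAAA, which can overlap each other, as TATA-like runs.
Hba-a2 (chr11:32296372-32296491, plus strand): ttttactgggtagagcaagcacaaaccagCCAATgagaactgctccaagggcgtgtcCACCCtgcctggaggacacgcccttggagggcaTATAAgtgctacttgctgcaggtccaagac
Hbb-bs (chr7:103827929-103828048, minus strand): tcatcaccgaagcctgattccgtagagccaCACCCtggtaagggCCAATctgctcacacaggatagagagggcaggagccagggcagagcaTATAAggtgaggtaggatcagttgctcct
Hbb-y (chr7:103853208-103853327, minus strand): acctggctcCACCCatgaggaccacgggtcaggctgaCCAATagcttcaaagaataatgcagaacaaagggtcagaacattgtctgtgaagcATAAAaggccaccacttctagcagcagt
All 3 hold CCAAT upstream of a TATA-like run, and all hold CACCC. In Hba-a2 CACCC lies at -63 to -59 from the start and in Hbb-bs at -90 to -86. Across the 250 bases before the start, CACCC and a TATA-like run were found in the promoters of Hba-x, Hba-a1, Hba-a2, Hbb-bs, Hbb-bt and Hbb-y, and CCAAT in those but Hba-x. Of 3 further globin-like genes in the clusters, Hbb-bh2, Hbq1a and Hbq1b, none held CACCC in this window, Hbq1a held no TATA-like run and Hbb-bh2 no CCAAT. The same windows of 32851 promoters held CACCC in 52.01%, the CCAAT box in 33.85%, GATAA in 22.58% and TATAA or ATAAA in 42.98%, so the motifs are common. Hba-a1 and Hba-a2 share a stretch of 247 bases in this window.

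Total counts per library were 1630863 to 11472763 for stage libraries and 3131142 to 15806844 for knockout-series libraries. The stage libraries fall into sets that the labels do not name: 12 (replicates 1 to 3 of both progenitor gates, of ERY-I and of ERY-V) held Y-linked transcripts and 26 held Xist, while all 30 knockout libraries held Y-linked transcripts. Values are given by set wherever a gate mixes them. Glul was lower in GS-KO in each gate, but to unequal degrees. In BFU-E its mean was 122 counts per 1000000 (CPM) in WT and 98.8 in GS-KO, so most of the WT level remained and Glul gives little check of the genotype labels there. In CFU-E the means were 86 in WT and 36 in GS-KO, in ERY-I-II 110.1 and 14.9, in ERY-III-VI 159 and 19.2, and in ERY-V-VI 254 and 23.3. Markers of other cells differed with genotype too and are given beside the knockout results.

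The 4 adult genes were counted in all 68 libraries. Their counts made up most of the globin total, with 30171447 counts in the stage series and 7008294 in the knockout series. Hba-x had 110 and 65 counts in those series, Hbb-bh1 164 and 110, and Hbb-y 149 and 78. The adult and embryonic genes therefore differ by orders of magnitude in precision, and they are described apart.

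The share of all counts that fell in the 7 globin genes was at most 0.047% in progenitors and at least 57.2% in ERY-VI of the stage series. In BFU-E it was 0.00311, 0.00998 and 0.00276%, and in CFU-E 0.0082, 0.0102, 0.0083, 0.0203 and 0.047%. In ERY-I the Y-positive libraries held 1.01, 0.987 and 0.995% and the Xist-positive ones 2.29, 4.63, 8.33 and 9.99%. From ERY-I onward globin was therefore a visible part of every library. ERY-II held 23.5, 28.4, 23.5 and 40.1%, ERY-III 23.4, 14.2, 24.5 and 33.5% and ERY-IV 24.6, 21.9, 40.2 and 43.6%. These 3 gates overlapped one another. In ERY-V the Y-positive libraries held 17.1, 17.2 and 17.1% and the Xist-positive ones 55.4, 38.1, 58.9 and 50.2%, and ERY-VI held 71.1, 57.2, 67.9 and 59.7%. The 2 sets did not overlap within ERY-I or within ERY-V. In bulk libraries of this kind fewer cells of a type and less RNA per cell cannot be told apart, which holds for every value below.

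**Figure D1:**
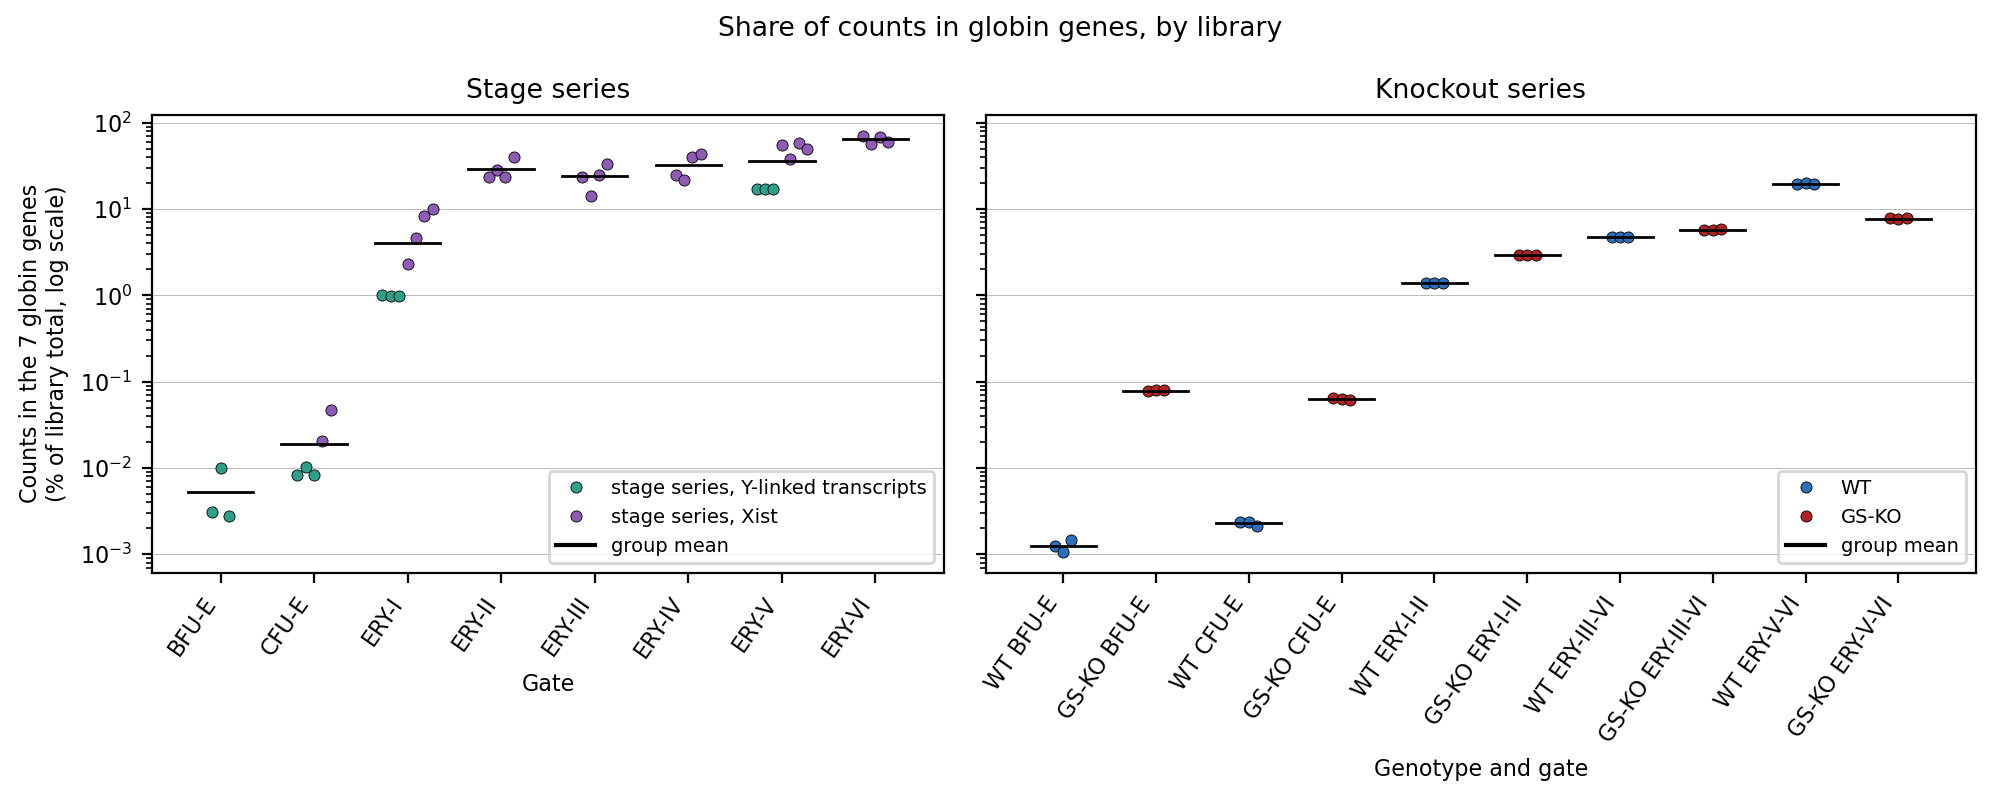
Share of each library's counts in the 7 globin genes (percent, log scale) for the 8 gates of the stage series (left, coloured by library set) and for WT and GS-KO in the 5 gates of the knockout series (right). Each point is a library: the share climbs from about 0.00276% in BFU-E to 71.1% in ERY-VI, and GS-KO points lie above WT in 4 gates and below WT in ERY-V-VI.

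Adult globin RNA was low but countable in the progenitor gates. BFU-E libraries held 10.3, 35.6 and 11.5 CPM of Hba-a1, the alpha gene nearer to Hba-x, and CFU-E libraries 32.8, 37.4, 30.9, 44.5 and 96.4 CPM. Hba-a2, its near-identical neighbour, was at 3.05, 8.55 and 1.96 CPM in BFU-E and 8.08, 11.3, 9.42, 9.82 and 19.4 CPM in CFU-E. For the adult beta gene Hbb-b1 the values were 12.4, 41.7 and 9.64 CPM in BFU-E and 28, 36.1, 28.7, 90.1 and 186 CPM in CFU-E. BFU-E replicate 2 stood above the other BFU-E libraries for these genes and within the CFU-E range, and CFU-E replicates 4 and 5, the Xist-positive ones, were highest for Hbb-b1. Hbb-b2, the other adult beta copy, was at 5.4, 13.9 and 4.52 CPM in BFU-E and 13, 17.1, 14, 56.8 and 168 CPM in CFU-E, again with BFU-E replicate 2 inside the CFU-E range. BFU-E replicate 2 also held more Slc4a1, the anion exchanger of maturing red cells, than replicates 1 and 3 (9.68, 28.2 and 8.14 CPM in replicate order). The sum of 6 erythroblast markers, Slc4a1 among them, differed little, at 555 to 598 CPM over the BFU-E libraries. The part of maturing cells in the globin value of replicate 2 was not tested.

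Between CFU-E and BFU-E 1 of the 4 adult genes passed the test (edgeR quasi-likelihood test, Benjamini-Hochberg adjusted over all genes tested, threshold 0.05), where 37.3% of all genes did. Hba-a2 rose by 1.51 ± 0.52 on the log2 scale (SE, edgeR adjusted p = 0.0458). The estimates for Hba-a1 (1.51 ± 0.56, edgeR adjusted p = 0.0625), Hbb-b1 (1.99 ± 0.83, 0.088) and Hbb-b2 (2.96 ± 1.06, 0.0543) missed the threshold. The Hba-a2 call ended when any 1 of BFU-E replicates 1 and 3 or CFU-E replicates 2 to 5 was left out, with adjusted p up to 0.167. Among the Y-positive libraries alone, 3 against 3, all 4 genes passed, with log2 fold changes from 0.66 to 1.20, where 67.4% of all genes did.

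The largest step of the stage series came at ERY-I, the proerythroblast gate. Hba-a1 reached 2836, 2693 and 2847 CPM in the Y-positive and 3463, 6064, 10879 and 12399 CPM in the Xist-positive ERY-I libraries, against at most 96.4 CPM in CFU-E. Hba-a2 reached 1494, 1413 and 1470.3 and 1268, 2777, 5095 and 5737 CPM in the same order. Hbb-b1 reached 3793, 3847 and 3798 CPM and 12807, 27789, 48223 and 57524 CPM. Every ERY-I library lay above every CFU-E library for these genes. Hbb-b2 followed the same pattern, with 1943, 1921 and 1829.8 CPM in the Y-positive and 5319.9, 9695, 19074 and 24280.3 CPM in the Xist-positive libraries. All 4 adult genes passed the test, where 46.4% of all genes did in either direction and 25.4% were higher. The log2 fold changes over CFU-E were 7.44 ± 0.80 for Hba-a1 (edgeR adjusted p = 3.95e-05), 8.41 ± 0.78 for Hba-a2 (1.52e-05), 8.80 ± 1.32 for Hbb-b1 (0.000235) and 7.95 ± 1.33 for Hbb-b2 (0.000489). Within the Y-positive libraries they ran from 6.51 to 7.39 and within the Xist-positive ones from 7.37 to 8.56, all past the threshold, where 79.1% and 42.3% of all genes were.

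Neutrophil markers moved with this step as well, and 7 of the 7 tested passed the test as higher in ERY-I. Their summed level was 4.2 to 28.9 CPM in CFU-E. In ERY-I it was 13637, 13782 and 13377 CPM in the Y-positive libraries, where globin shares were lowest, and 44.4, 1242, 20.1 and 0.409 CPM in the Xist-positive ones. None of the 8 markers was at 0 across either gate. Macrophage markers passed as higher for 9 of 9 tested (5.0 to 8.4 CPM in CFU-E, 4.51 to 1785 in ERY-I) and B cell markers for 4 of 4 (0 to 6.0 and 0 to 375 CPM, with Cd79a and Pax5 at 0 in CFU-E). The ERY-I library with the lowest neutrophil sum, replicate 7, held 9.99% globin, and replicate 5, with the highest sum of the Xist-positive ones, held 4.63%. Replicate 4, with a neutrophil sum of 44.4 CPM, held the lowest globin share of the Xist-positive ones, 2.29%. The part of other cells in the step was not tested.

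All 4 adult genes rose again from ERY-I to ERY-II, the basophilic erythroblasts, where 45.3% of all genes passed the test and 20.2% were higher. ERY-II libraries held 31122, 32396, 27826 and 41058 CPM of Hba-a1 and 142215, 181320.0, 141247 and 244520.0 CPM of Hbb-b1. Every one of them exceeded every ERY-I library for these genes. Hba-a2 was at 20562, 21568, 16571 and 27112 CPM and Hbb-b2 at 40741, 49130.2, 49095 and 88412 CPM in ERY-II. The log2 fold changes were 3.81 ± 0.67 for Hba-a1 (edgeR adjusted p = 0.000969), 4.28 ± 0.66 for Hba-a2 (0.000404), 4.27 ± 1.08 for Hbb-b1 (0.00789) and 3.98 ± 0.96 for Hbb-b2 (0.00582). Between Xist-positive libraries alone they ran from 3.29 to 3.80, all past the threshold, where 46.3% of all genes were. The default scaling (TMM) reads globins against the other genes, and scaling by library totals gave 2.49 to 2.98, with the median of all genes at -1.67 in place of -0.35.

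From ERY-II to ERY-III and from ERY-III to ERY-IV no adult gene passed the test in a fit without replicate numbers. ERY-III libraries, polychromatic erythroblasts, held 28040.1, 17377, 28105 and 37591 CPM of Hba-a1 and 144850.0, 87476, 147581 and 202821 CPM of Hbb-b1. ERY-IV libraries, orthochromatic erythroblasts, held 25486, 25922, 44014 and 46837 and 154180.0, 134246, 244474 and 261657 CPM of the same genes. The 3 gates overlapped for both. Hba-a2 ran from 9655 to 23238 CPM in ERY-III and from 16029.6 to 30662 CPM in ERY-IV, and Hbb-b2 from 27405 to 71772 and from 42116 to 96396 CPM. Of the 4 genes 0 passed between ERY-III and ERY-II with edgeR (0 at an unadjusted p under 0.05), where 0.185% of all genes did. With DESeq2, which called 275 of 7574 genes, 0 of the 4 passed, and with limma-voom 0. The estimates ran from -0.59 to -0.46 on the log2 scale. Libraries with the same replicate number deviated together in these gates, and Hba-a2 was lower in ERY-III in all 4 same-numbered pairs. With the replicate number as a block 10.3% of all genes passed and 0 of the 4 adult genes did (1 at an unadjusted p under 0.05), with Hba-a2 at -0.62 (edgeR adjusted p = 0.108).

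Between ERY-IV and ERY-III 0 of the 4 passed with edgeR (1 at an unadjusted p under 0.05), where 13.6% of all genes did. With DESeq2, which called 1343 of 7238 genes, 0 of the 4 passed, and with limma-voom 0. The estimates ran from 1.01 to 1.16, with SE up to 0.56. Here too same-numbered libraries deviated together. With the replicate number as a block the estimates ran from 0.95 to 1.11 and all 4 genes passed, with adjusted p from 0.0108 for Hba-a2 to 0.0392 for Hbb-b1, where 25.2% of all genes passed. Scaled by library totals the estimates were 0.36 to 0.51.

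In ERY-V, the reticulocyte gate, the library sets stood apart for the beta genes and overlapped for the alpha genes. Hba-a1 was at 48901, 48314 and 48656 CPM in the Y-positive and 61471, 41552, 70659 and 81144 CPM in the Xist-positive ERY-V libraries. Hbb-b1 was at 59555, 60923 and 60569 CPM and 342720.0, 235725, 350208 and 276081 CPM, with every Xist-positive library above every Y-positive one. Hba-a2 ran from 30583 to 58676 CPM and Hbb-b2 from 28045 to 117452 CPM over the 7 libraries. Against ERY-IV 0 of the 4 genes passed with edgeR (2 at an unadjusted p under 0.05), where 8.83% of all genes did. With DESeq2, which called 1184 of 6990 genes, 2 of the 4 passed, and with limma-voom 2. The estimates were 1.79 ± 0.64 for Hba-a1, 1.93 ± 0.64 for Hba-a2, 1.37 ± 0.91 for Hbb-b1 and 1.29 ± 0.81 for Hbb-b2. Between Xist-positive libraries alone Hba-a1 (2.34, edgeR adjusted p = 0.0377) and Hba-a2 (2.49, 0.0262) passed, where 6.57% of all genes did. With library totals the estimates were -0.032 to 0.82, so the direction for both beta genes depends on the scaling. Of 8 neutrophil markers 6 were called higher in ERY-V, at 2699, 2749 and 2729.9 CPM summed in the Y-positive and 9.63, 3379.7, 117 and 1.01 CPM in the Xist-positive libraries against 1.86 to 185 in ERY-IV, with none of the 8 at 0 across either gate, and their part in the globin values was not tested.

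In ERY-VI, the red blood cell gate, all 4 adult genes had their highest mean over the libraries of a gate, although the mean of Hbb-b2 in the Xist-positive ERY-V libraries alone was higher still (95373 ± 19472 CPM, SD, n = 4, against 83546 ± 16852 CPM in ERY-VI). Hba-a1 was at 93043, 97556, 97720.2 and 103488 CPM and Hba-a2 at 70821, 74195, 72642 and 73337 CPM, above every ERY-V library. Hbb-b1 was at 446953, 336762, 414177 and 343502 CPM and Hbb-b2 at 100220.0, 63096, 94055 and 76812 CPM, and both overlapped ERY-V. Against ERY-V the alpha genes passed the test, 2 of the 4, where 7.83% of all genes passed and 3.32% were higher. Hba-a1 rose by 2.29 ± 0.46 (edgeR adjusted p = 0.00617) and Hba-a2 by 2.34 ± 0.46 (0.00542) on the log2 scale. Hbb-b1 (2.29 ± 0.70, edgeR adjusted p = 0.0508) and Hbb-b2 (1.70 ± 0.62, 0.0913) did not pass. Without ERY-V replicate 6 all 4 passed, as did 10.3% of all genes. Between Xist-positive libraries alone Hba-a2 passed (1.86, adjusted p = 0.0441) and Hba-a1 did not (1.82, 0.0535), where 2.06% of all genes passed. Scaled by library totals, with the median of all genes at -2.22 in place of -0.34, the rises were 0.33 to 0.96.

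**Figure D2:**
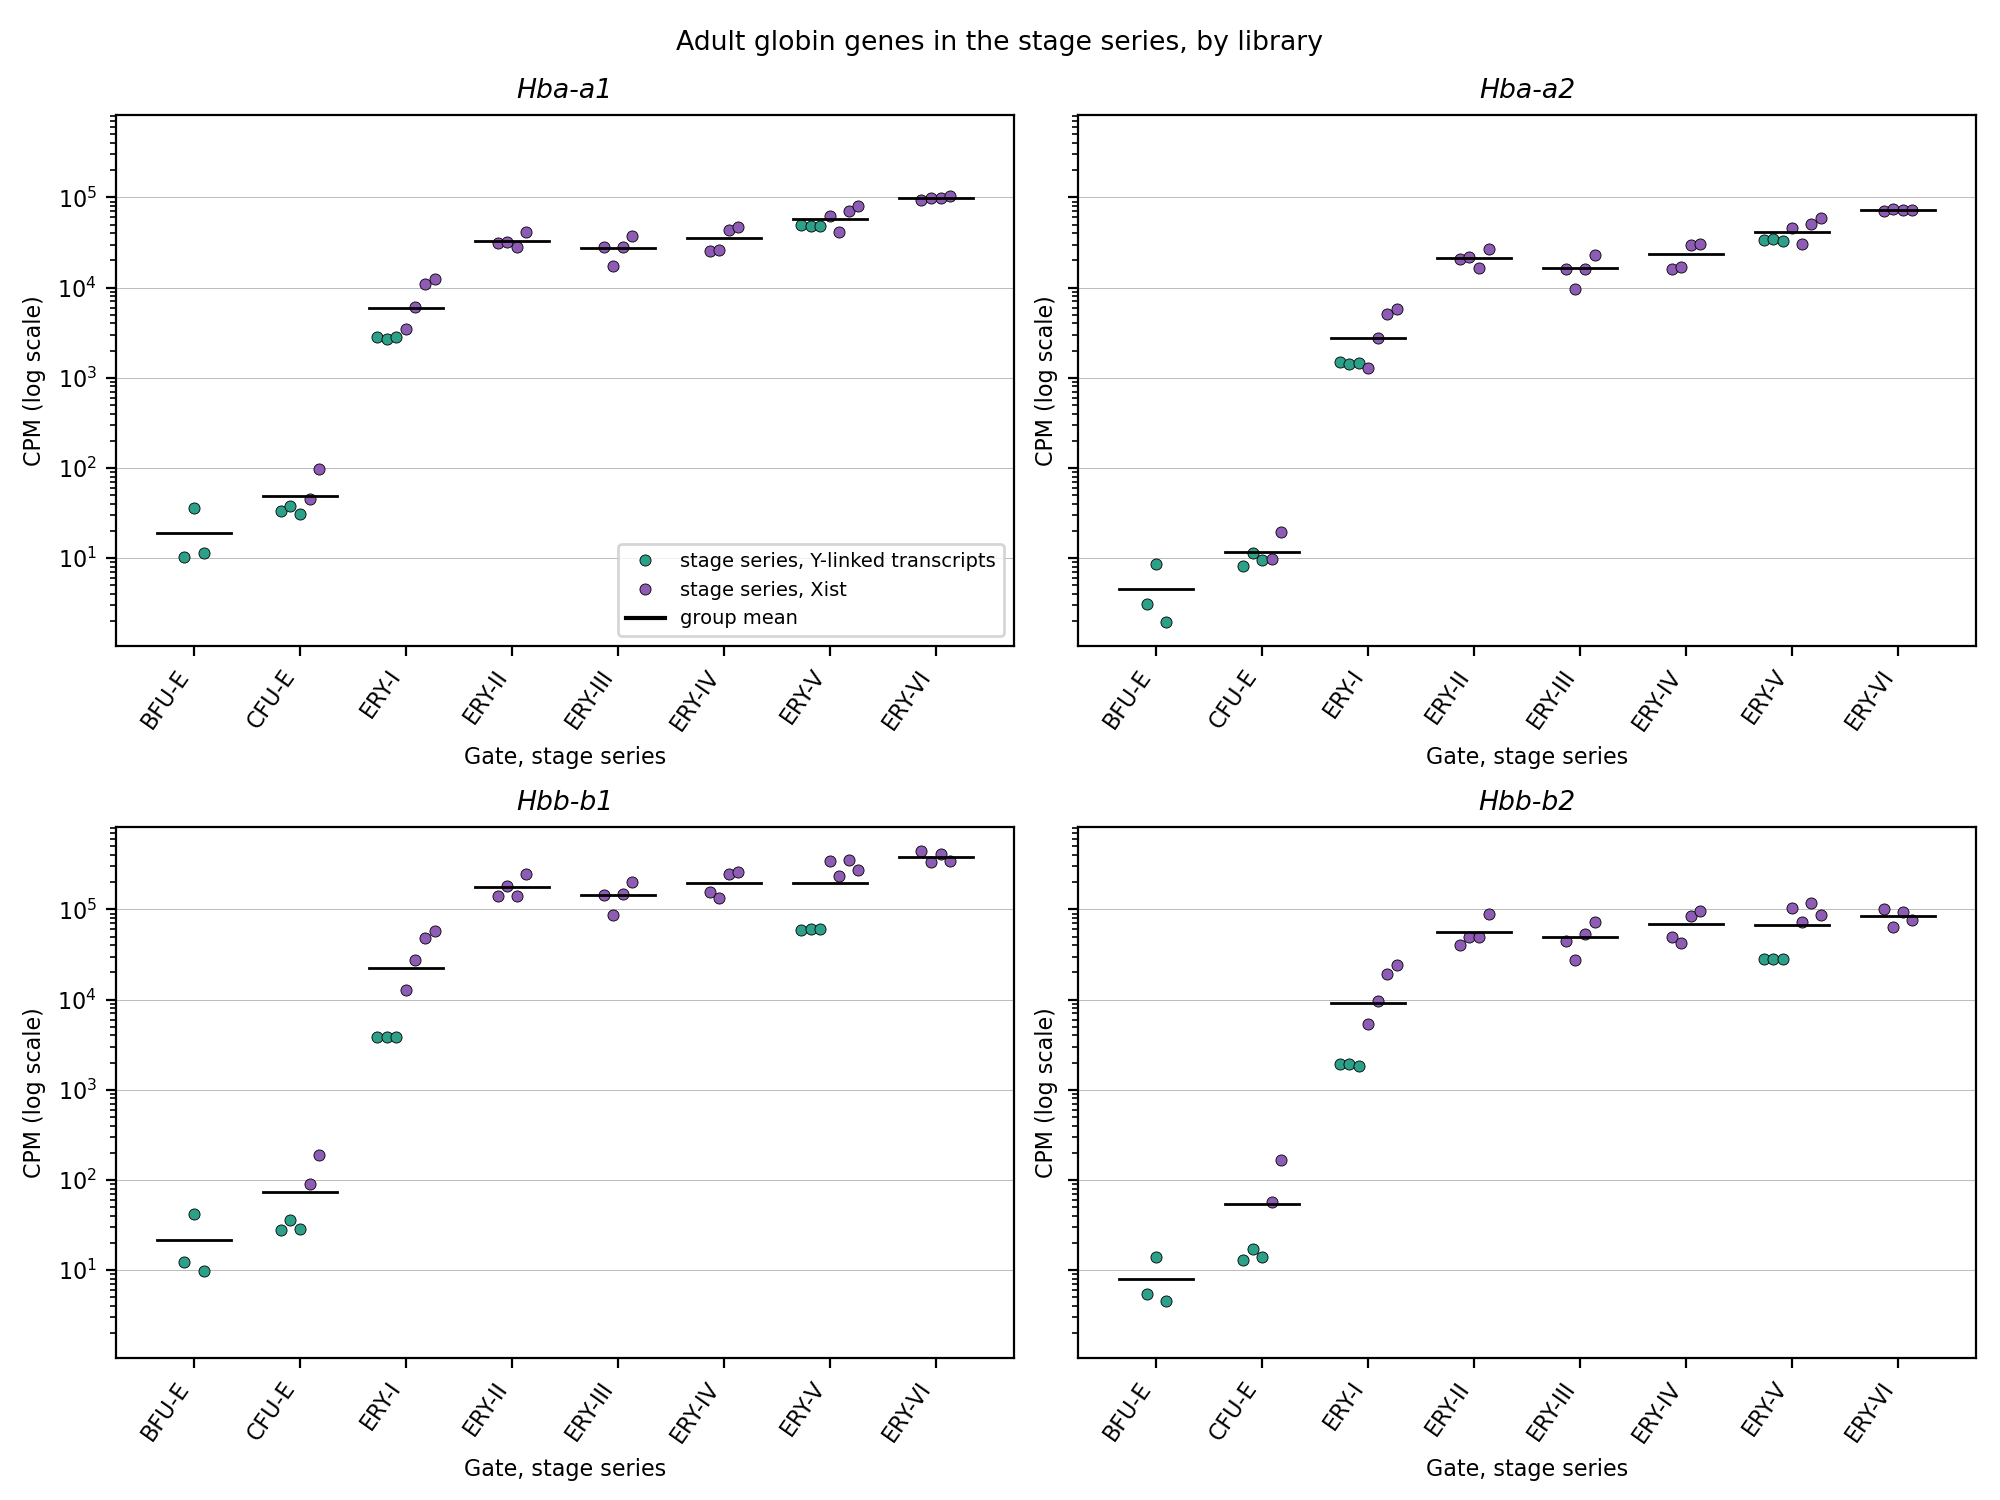
CPM (log scale) of the 4 adult globin genes in each library of the 8 stage gates, coloured by library set. Every ERY-I library lies above every CFU-E library for each gene, and in ERY-V the Y-positive libraries lie below the Xist-positive ones for Hbb-b1 and Hbb-b2.

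The balance of beta to alpha counts, which sums over the adult copies of each chain, split by library set and not by gate alone. It is a ratio of counts, not corrected for transcript length, and is read only between libraries. In the Y-positive libraries it was 1.0, 1.09 and 1.06 in CFU-E, 1.32, 1.4 and 1.3 in ERY-I and 1.06, 1.08 and 1.09 in ERY-V. In the Xist-positive libraries it was 2.71 and 3.06 in CFU-E, 3.83, 4.24, 4.21 and 4.51 in ERY-I and 4.18, 4.28, 3.85 and 2.59 in ERY-V. The sets did not overlap in any of these gates. In the gates with Xist-positive libraries alone the ratio ran from 3.54 to 4.88 in ERY-II, 4.25 to 4.53 in ERY-III, 4.12 to 4.92 in ERY-IV and 2.33 to 3.34 in ERY-VI, so within this set every ERY-VI library lay below every ERY-IV library. BFU-E, all Y-positive, was at 1.33, 1.26 and 1.06.

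Between the beta copies, the ratio of Hbb-b2 to Hbb-b1 counts was lowest in ERY-VI, at 0.224, 0.187, 0.227 and 0.224. In ERY-V it was 0.471, 0.463 and 0.467 in the Y-positive and 0.304, 0.311, 0.335 and 0.313 in the Xist-positive libraries, and no ERY-V library reached down to the ERY-VI values. The fold of ERY-VI over ERY-V was 0.576 (exact permutation test, two-sided, p = 0.00606, 0.0646 after adjustment over 32 such tests). In ERY-I the Y-positive libraries were at 0.512, 0.499 and 0.482 and the Xist-positive ones at 0.415, 0.349, 0.396 and 0.422, so this ratio too differed by set.

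The ratio of Hba-a2 to Hba-a1 counts, looked at after their values were seen and given with no test, was higher in the later gates of the stage series than in progenitors. Its geometric mean over BFU-E libraries was 0.23, and over CFU-E libraries 0.251. It was 0.472 for ERY-I and 0.645 for ERY-II, then 0.583 for ERY-III and 0.652 for ERY-IV, and at the end 0.715 for ERY-V and 0.743 for ERY-VI. ERY-I libraries (0.366 to 0.527) did not overlap CFU-E (0.201 to 0.305) or ERY-II (0.596 to 0.666). Since the 2 genes differ at a single coding base, this ratio rests on the reads that the authors' counting could place.

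**Figure D3:**
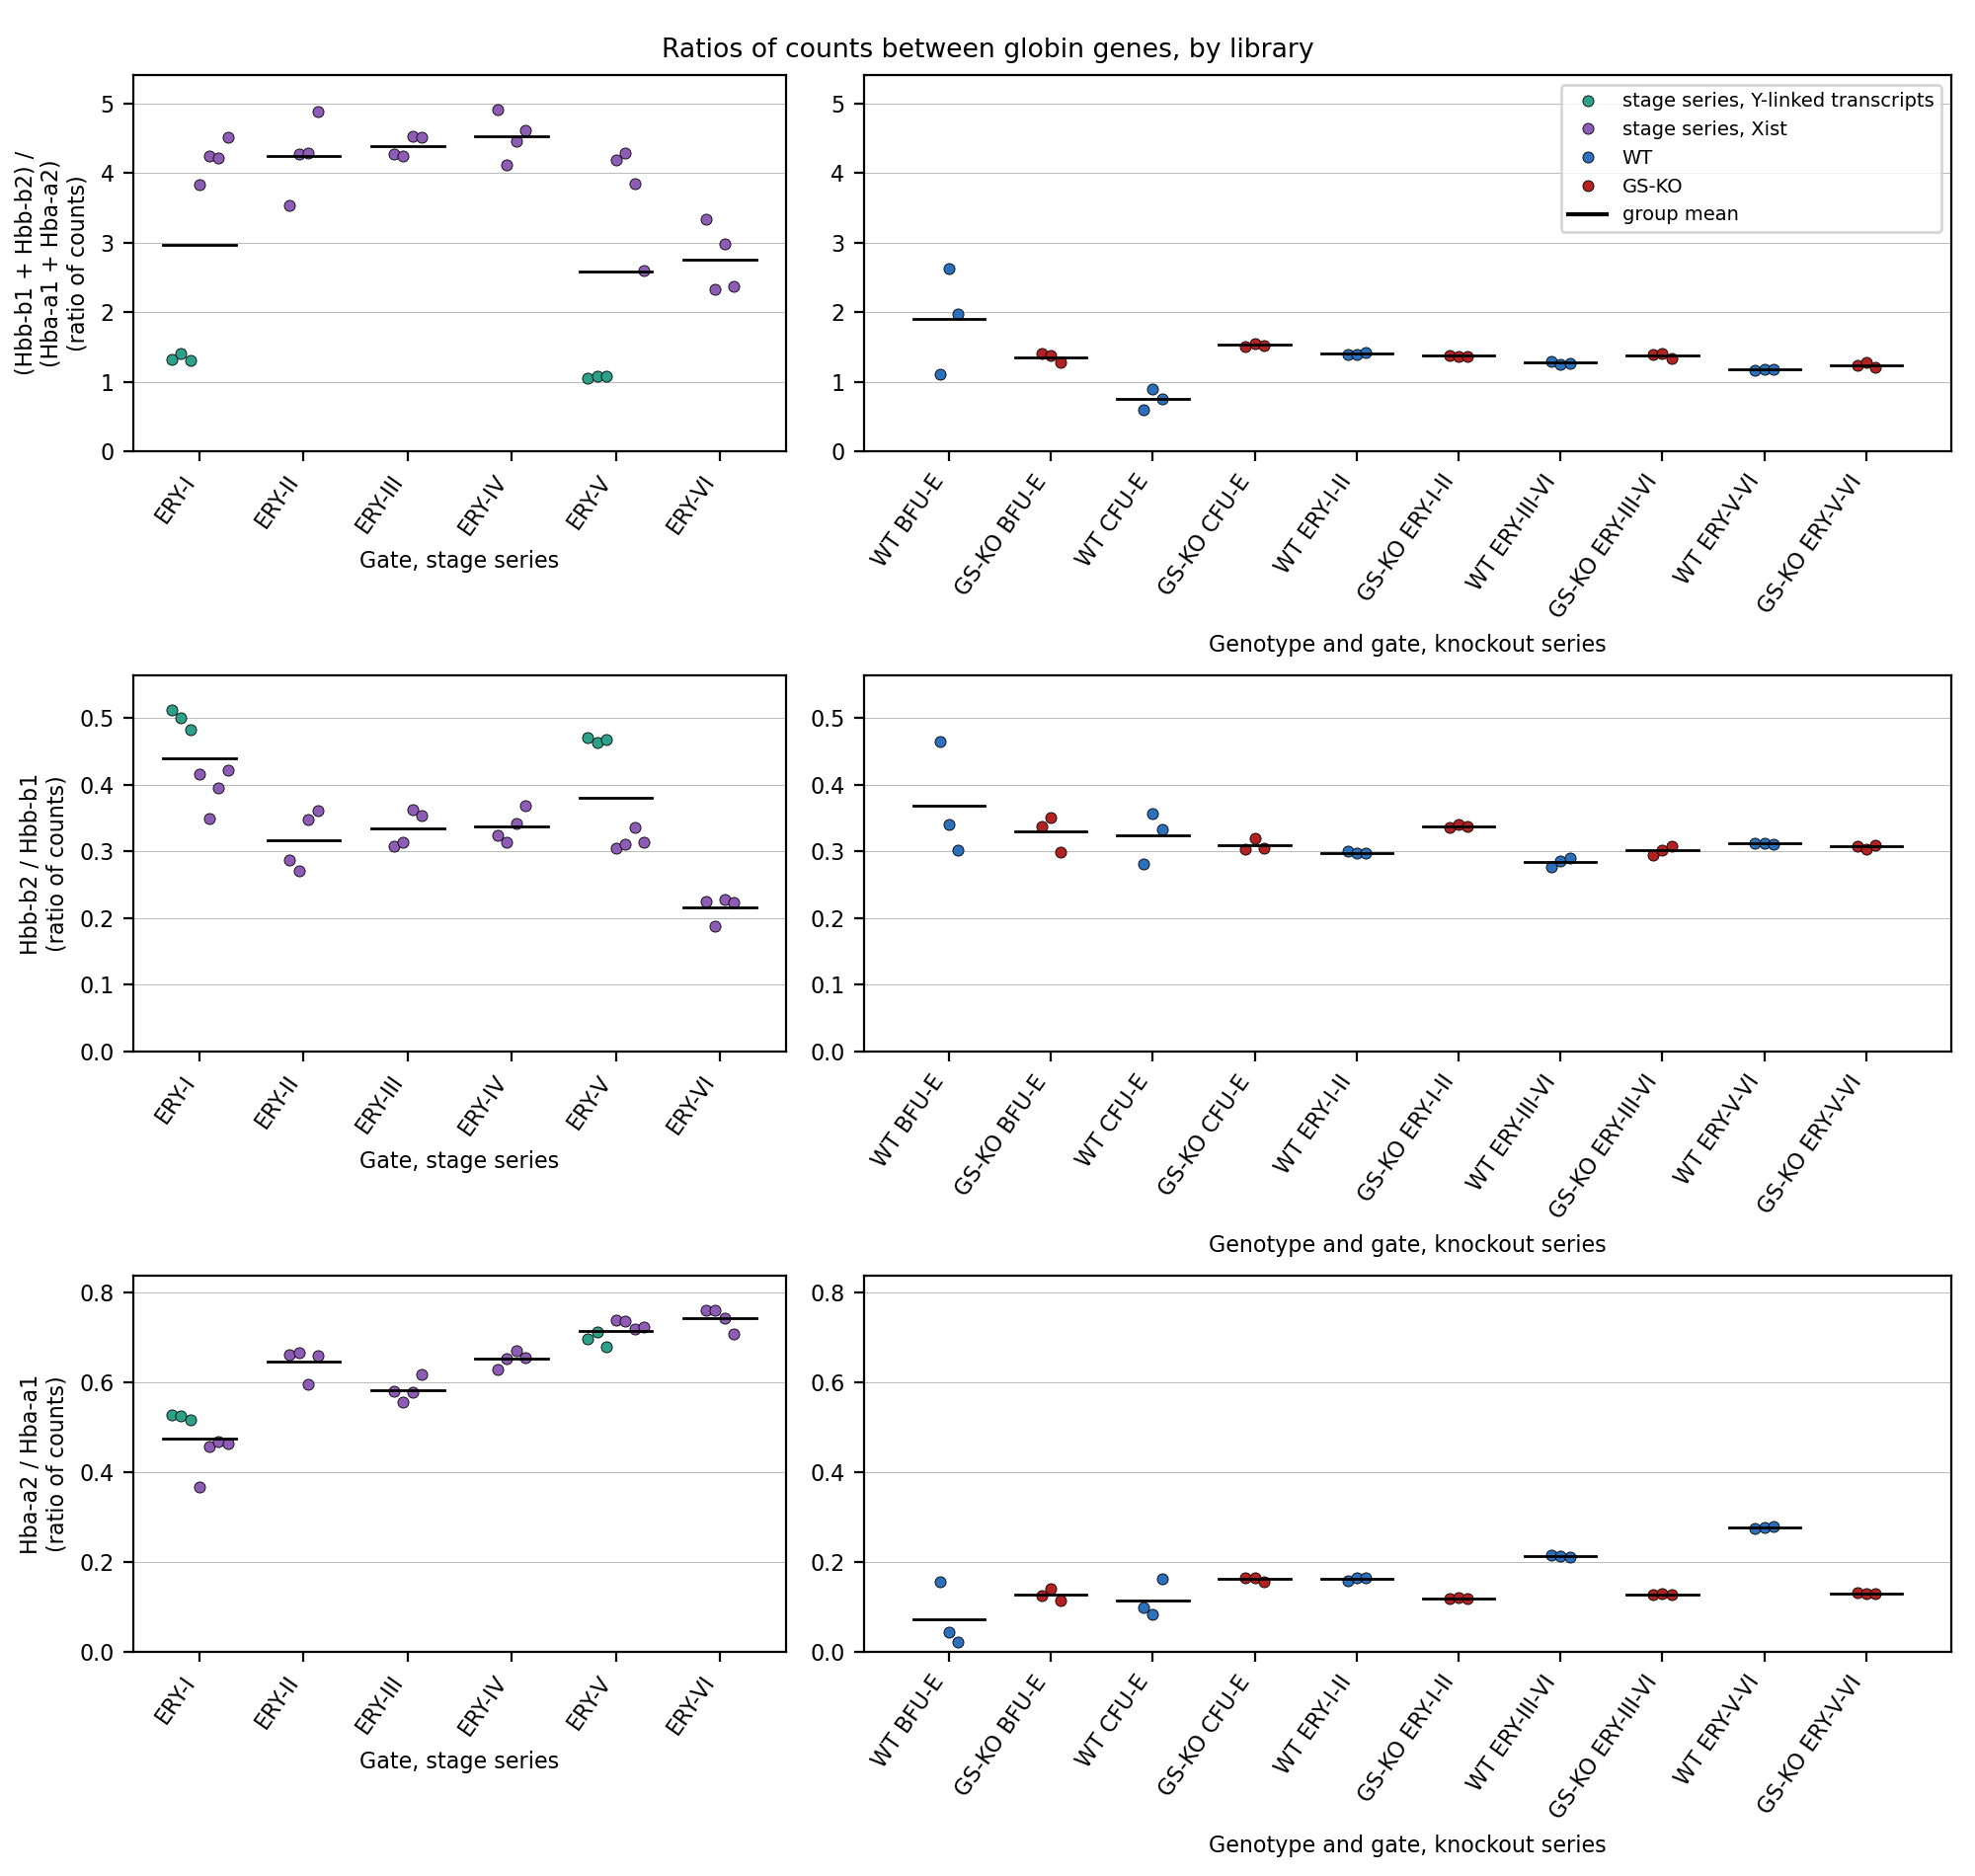
Ratios of counts between globin genes in each library (beta to alpha, Hbb-b2 to Hbb-b1, and Hba-a2 to Hba-a1), for ERY-I to ERY-VI of the stage series (left) and for the knockout series (right), coloured by library set or genotype. Beta to alpha lies near 1.06 in Y-positive ERY-V libraries and between 2.59 and 4.28 in Xist-positive ones, and Hba-a2 to Hba-a1 is lower in GS-KO than in WT in the 3 later gates.

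The embryonic genes were near the limit of detection throughout. Hba-x, Hbb-bh1 and Hbb-y were at 0 in every BFU-E library of both series, which allows up to 0.12 per 1000000 in the stage series (3 counts over the summed total). In CFU-E they were at 0 as well, apart from 11 counts of Hba-x in CFU-E replicate 4. Such floors and the exact Poisson intervals below cover counting error only. Hba-x and Hbb-y passed the filter on low counts in none of the comparisons, and Hbb-bh1 passed it in 2 of them and in the genotype-by-gate fit.

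Hbb-bh1, the embryonic beta h1 chain, was found in small numbers from ERY-I onward. In ERY-I its summed level was 0.266 per 1000000 counts (95% exact interval 0.133 to 0.476, 11 counts). In ERY-IV it was 2.32 per 1000000 counts (95% exact interval 1.67 to 3.15, 41 counts), and in ERY-V 2.51 per 1000000 counts (95% exact interval 1.89 to 3.27, 55 counts). The ERY-IV and ERY-V intervals lie above that of ERY-I. Per 1000000 adult globin counts the levels were 7.08 (95% exact interval 3.53 to 12.7) in ERY-I, 7.21 (5.17 to 9.78) in ERY-IV and 6.39 (4.81 to 8.32) in ERY-V. On that scale the intervals overlap, so Hbb-bh1 did not rise relative to the adult genes. In ERY-VI it was 1.57 per 1000000 counts (95% exact interval 0.857 to 2.63, 14 counts), whose interval overlaps those of ERY-IV and ERY-V. Per 1000000 adult globin counts ERY-VI was at 2.41 (1.32 to 4.04). That interval lies below those of ERY-IV and ERY-V and overlaps that of ERY-I. The ERY-VI libraries held 12, 0, 1 and 1 counts, so 1 library held most of them. No library held more than 21 counts of Hbb-bh1.

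Hbb-y, which encodes the epsilon y chain, was unevenly spread over the libraries of some gates. In ERY-IV its level was 2.77 per 1000000 counts (95% exact interval 2.05 to 3.67, 49 counts), with 1, 4, 11 and 33 counts in the 4 libraries. In ERY-VI it was 3.25 per 1000000 counts (95% exact interval 2.18 to 4.67, 29 counts), with 3, 23, 2 and 1 counts. In both gates 1 library held more than the other 3 together, while the ERY-III libraries held 2, 3, 5 and 3 counts. Hba-x, the embryonic alpha-like zeta chain, was at 0.411 per 1000000 counts (95% exact interval 0.239 to 0.658, 17 counts) in ERY-I and 2.13 per 1000000 counts (95% exact interval 1.28 to 3.32, 19 counts) in ERY-VI, where the libraries held 3, 12, 1 and 3 counts. Per 1000000 adult globin counts Hba-x was lower in ERY-VI, at 3.27 (1.97 to 5.11) against 10.9 (6.37 to 17.5) in ERY-I.

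**Figure D4:**
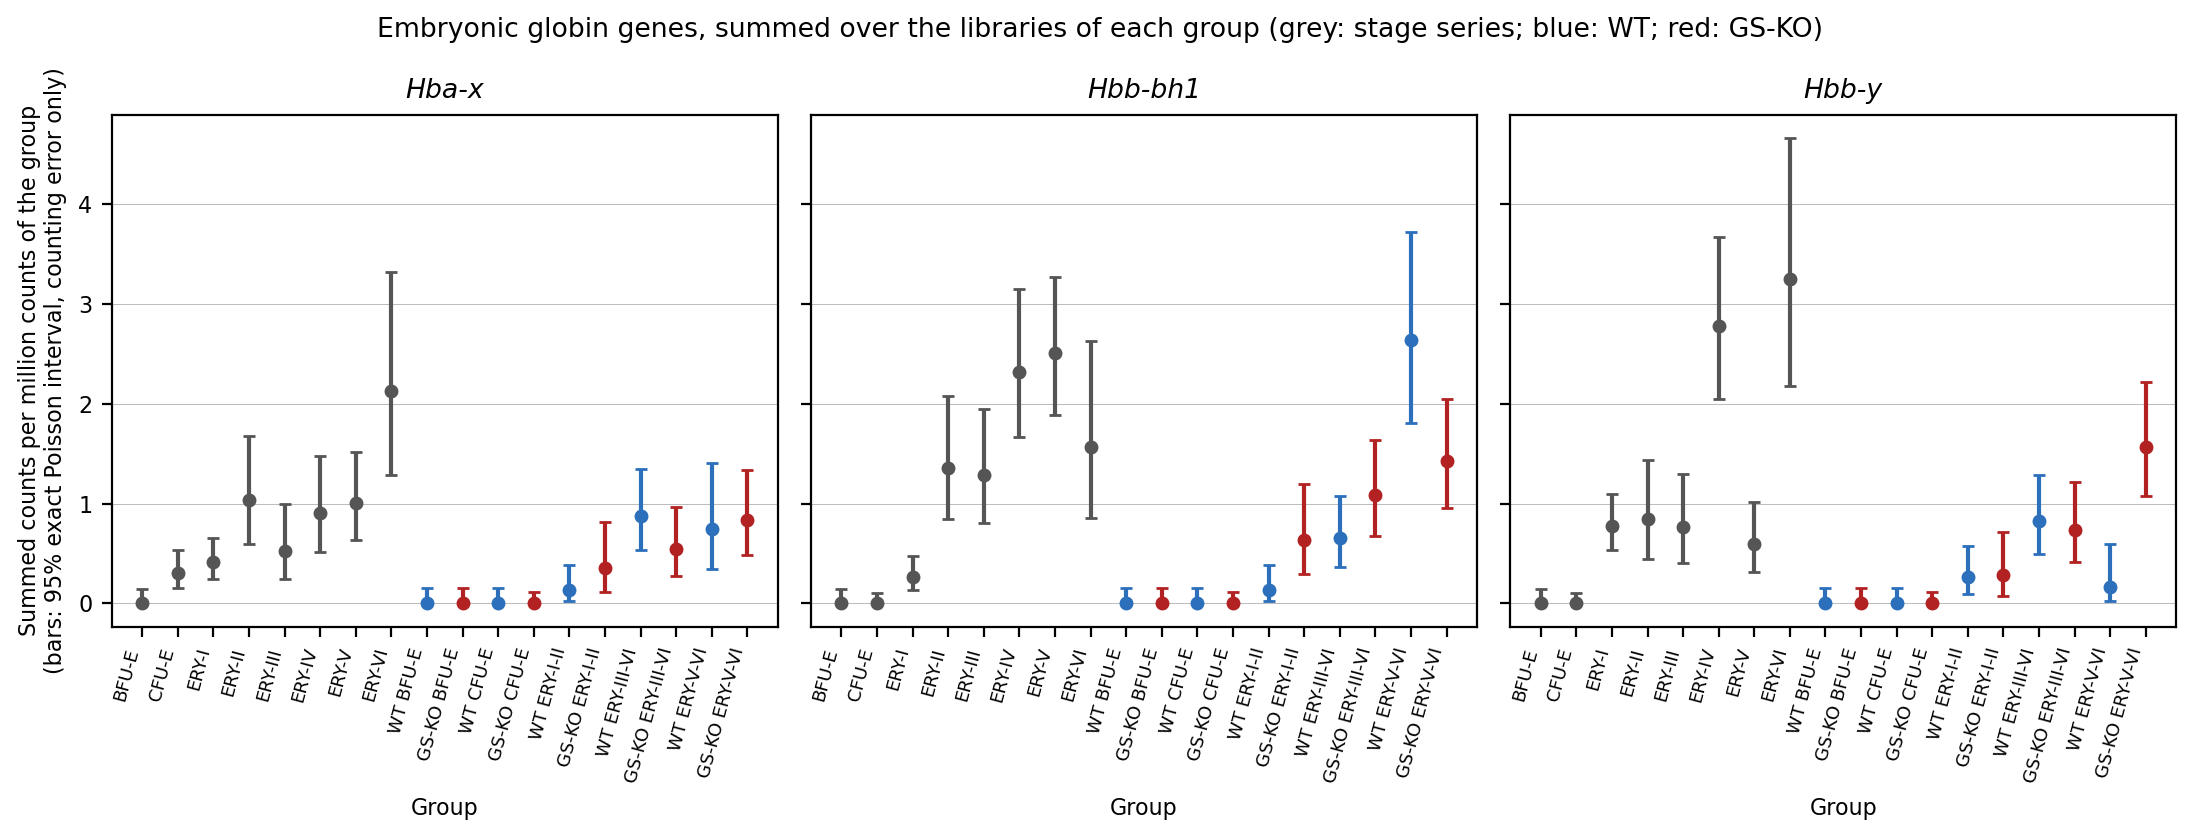
Summed counts per 1000000 of Hba-x, Hbb-bh1 and Hbb-y in each group of both series, with 95% exact Poisson intervals that cover counting error only. All 3 genes are at 0 in BFU-E, and no group exceeds 3.25 per 1000000.

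Libraries labelled GS-KO were set against WT gate by gate, which asks how globin RNA differs between the genotypes along maturation. In BFU-E and CFU-E all 4 adult genes were far higher in GS-KO than in WT, at levels still small against later gates. The globin share in WT BFU-E was 0.00124, 0.00105 and 0.00146% against 0.0773, 0.0794 and 0.0799% in GS-KO. In WT CFU-E it was 0.00235, 0.00239 and 0.00211% against 0.0639, 0.0627 and 0.0605% in GS-KO. The genotypes did not overlap in either gate.

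Glul was lower in GS-KO BFU-E by a small factor (-0.29 ± 0.052 on the log2 scale, edgeR adjusted p = 1.26e-05). For BFU-E, Hba-a1 was at 5.08, 2.79 and 4.79 CPM in WT and 285, 293 and 315 CPM in GS-KO. Hbb-b1 was at 4.45, 5.7 and 7.44 CPM in WT and 337, 340.2 and 345 CPM in GS-KO, and Hbb-b2 at 2.07, 1.94 and 2.24 and 114, 119 and 103 CPM. GS-KO exceeded WT in every library for these 3 genes. For Hba-a2 the WT libraries held 5, 1 and 1 counts and the GS-KO libraries 325, 308 and 272 counts, a ratio of summed levels of 131 (95% exact interval 63.3 to 326). All 4 genes passed the test, where 24% of all genes did and 15.4% were higher. The log2 fold changes were 6.16 ± 0.086 for Hba-a1 (edgeR adjusted p = 2.37e-48), 6.97 ± 0.26 for Hba-a2 (6.60e-29), 5.82 ± 0.073 for Hbb-b1 (2.43e-50) and 5.75 ± 0.13 for Hbb-b2 (3.86e-39).

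For CFU-E, Hba-a1 was at 13.4, 11.7 and 10.3 CPM in WT and 219, 211 and 207 CPM in GS-KO. Hba-a2 was at 1.32, 0.984 and 1.68 and 36, 34.7 and 32.5 CPM. Hbb-b1 was at 6.86, 8.29 and 6.84 and 295, 289 and 279.9 CPM, and again no WT library reached a GS-KO one. Hbb-b2 was at 1.93, 2.95 and 2.28 and 89.5, 92.4 and 85.5 CPM. All 4 passed, where 29.4% of all genes did and 17.9% were higher. The log2 fold changes were 4.16 ± 0.064 for Hba-a1, 4.65 ± 0.16 for Hba-a2, 5.29 ± 0.063 for Hbb-b1 and 5.22 ± 0.11 for Hbb-b2 (edgeR adjusted p from 1.16e-33 to 5.83e-21). The beta to alpha count ratio was 0.598, 0.889 and 0.76 in WT and 1.51, 1.55 and 1.52 in GS-KO CFU-E, without overlap. In BFU-E the WT ratios (1.11, 2.62 and 1.98) spanned those of GS-KO (1.4, 1.38 and 1.28).

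Markers of other cells moved with the globins in these 2 gates, and so did Slc4a1, while the erythroblast markers as a list were mixed. All 8 neutrophil markers were called higher in GS-KO, with summed levels of 26.7 to 36.2 CPM in WT and 7008 to 7085 CPM in GS-KO BFU-E, and 25.9 to 28.9 and 4303 to 4377 CPM in CFU-E. None of the 8 was at 0 in any group of the knockout series. Macrophage markers were called higher for 7 of 7 tested in BFU-E (8.57 to 9.06 CPM in WT, 399 to 411 in GS-KO) and 6 of 6 in CFU-E (4.09 to 5.52 and 238 to 249), with Emr1 at 0 in WT CFU-E. B cell markers were called higher for 8 of 8 in BFU-E (2.07 to 4.0 and 29.3 to 42.1 CPM) and 6 of 6 in CFU-E (0.36 to 0.963 and 16.6 to 17.6), with Cd79b, Ebf1 and Ms4a1 at 0 in WT CFU-E. Slc4a1 was at 3.97, 2.91 and 5.1 CPM in WT and 261, 238 and 241 CPM in GS-KO BFU-E, and at 4.82, 3.8 and 5.28 and 202, 195 and 194 CPM in CFU-E. The erythroblast list as a whole had 4 members higher and 2 lower of 6 in BFU-E (630.0 to 638 and 1000.2 to 1027 CPM) and 2 higher and 3 lower in CFU-E (1359.9 to 1394 and 1463 to 1481), with none at 0. The part of other or more mature cells in the globin difference was not tested.

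In ERY-I-II, the labels' proerythroblasts and basophilic erythroblasts, all 4 adult genes were higher in GS-KO by a smaller factor. The globin share was 1.38, 1.38 and 1.38% in WT and 2.95, 2.94 and 2.96% in GS-KO. Hba-a1 was at 4980.4, 4965 and 4876 CPM in WT and 11068, 11088 and 11232 CPM in GS-KO, and Hbb-b1 at 6171, 6211 and 6259.6 and 12836, 12686 and 12771 CPM. The genotypes did not overlap. Hba-a2 was at 786, 818 and 808 and 1305, 1333 and 1329 CPM, and Hbb-b2 at 1850.0, 1843 and 1857 and 4307, 4324 and 4303 CPM. All 4 passed, where 40.3% of all genes did and 22.9% were higher. The log2 fold changes were 1.29 ± 0.013 for Hba-a1, 0.84 ± 0.022 for Hba-a2, 1.16 ± 0.013 for Hbb-b1 and 1.34 ± 0.016 for Hbb-b2 (edgeR adjusted p from 3.28e-72 to 1.72e-45).

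In ERY-III-VI, given with the source polychromatic and orthochromatic erythroblasts, the alpha copies moved in opposite directions. Hba-a2 fell, from 3677, 3682 and 3646 CPM in WT to 2694, 2728 and 2862 CPM in GS-KO (-0.57 ± 0.023 on the log2 scale, edgeR adjusted p = 6.51e-29). Hba-a1 was at 17086, 17206 and 17276 CPM in WT and 21192, 20961 and 22523 CPM in GS-KO (0.17 ± 0.018, edgeR adjusted p = 1.01e-11). The WT and GS-KO libraries did not overlap for either copy. Hbb-b1 was at 21032, 20370.4 and 20597 and 25818, 25559 and 25951 CPM (0.16 ± 0.016, 3.76e-13) and Hbb-b2 at 5824, 5806 and 5980.4 and 7607, 7695 and 7995 CPM (0.24 ± 0.02, 6.12e-16). All 4 passed, 3 higher and 1 lower, where 55.9% of all genes passed, 31.4% higher and 24.5% lower. The small rises depended on the fit: with all groups in one fit Hba-a1 was at -0.06, Hbb-b1 at -0.068 and Hbb-b2 at 0.017. The globin share was 4.76, 4.71 and 4.75% in WT and 5.73, 5.69 and 5.93% in GS-KO.

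In ERY-V-VI, reticulocytes and red blood cells, the direction turned and all 4 adult genes were lower in GS-KO. The globin share was 19.6, 19.8 and 19.6% in WT and 7.79, 7.68 and 7.81% in GS-KO. Hba-a1 was at 71166, 71422 and 70075 CPM in WT and 30844, 29823 and 31423 CPM in GS-KO, and Hba-a2 at 19555, 19740.1 and 19588 and 4065, 3865 and 4070.0 CPM. Every GS-KO library lay below every WT library for both. Hbb-b1 was at 80250.4, 81673 and 81106 and 32837, 33100.0 and 32567 CPM, and Hbb-b2 at 25066, 25536 and 25216 and 10112, 10058 and 10066 CPM. All 4 passed, where 42.9% of all genes did and 20.5% were lower. The log2 fold changes were -2.50 ± 0.017 for Hba-a1 (edgeR adjusted p = 2.87e-22), -3.59 ± 0.022 for Hba-a2 (9.54e-23), -2.60 ± 0.01 for Hbb-b1 (5.41e-25) and -2.62 ± 0.014 for Hbb-b2 (2.33e-23). Scaled by library totals they were -1.21, -2.29, -1.30 and -1.33 in the same order, with the median of all genes at 1.44 in place of 0.15.

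Markers moved with genotype in the later gates as well. In ERY-I-II all 8 neutrophil markers were called higher in GS-KO (108 to 116 CPM summed in WT, 6172 to 6268 in GS-KO), as in ERY-III-VI (252 to 255 and 9902 to 9981) and ERY-V-VI (608 to 653 and 13322 to 13495). Macrophage markers were higher for 8 of 8 tested in ERY-I-II (15.8 to 21.6 and 385 to 392 CPM), 9 of 9 in ERY-III-VI (28.4 to 39.4 and 657 to 680.2) and 4 of 9 in ERY-V-VI (57.5 to 73.8 and 802 to 864). B cell markers were higher for 5 of 5, 7 of 7 and 4 of 7 tested in these gates (1.2 to 2.51 and 20.4 to 25.3 CPM, 0.995 to 2.27 and 38.6 to 45, and 2.54 to 4.67 and 49.5 to 62.2 in that order), with Ms4a1 at 0 in WT ERY-I-II and WT ERY-V-VI. Erythroid progenitor markers (Kit, Gata2, Cd34 and Myb) were higher for 3 of 3 tested in ERY-I-II (73.3 to 81.1 and 157 to 162 CPM), 4 of 4 in ERY-III-VI (22 to 24.1 and 174 to 188 CPM) and 3 of 4 in ERY-V-VI (15.4 to 26.2 and 242 to 269.7). Of 6 erythroblast markers 4 rose and 1 fell in ERY-I-II (12922 to 12959 and 17557 to 17567 CPM), while 5 fell in ERY-III-VI (29396 to 29896 and 25642 to 25946 CPM) and 6 in ERY-V-VI (45456 to 46592 and 26390.5 to 26609). None of the macrophage, progenitor or erythroblast markers was at 0 in these gates, and the part of any of these in the globin differences was not tested.

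**Figure D5:**
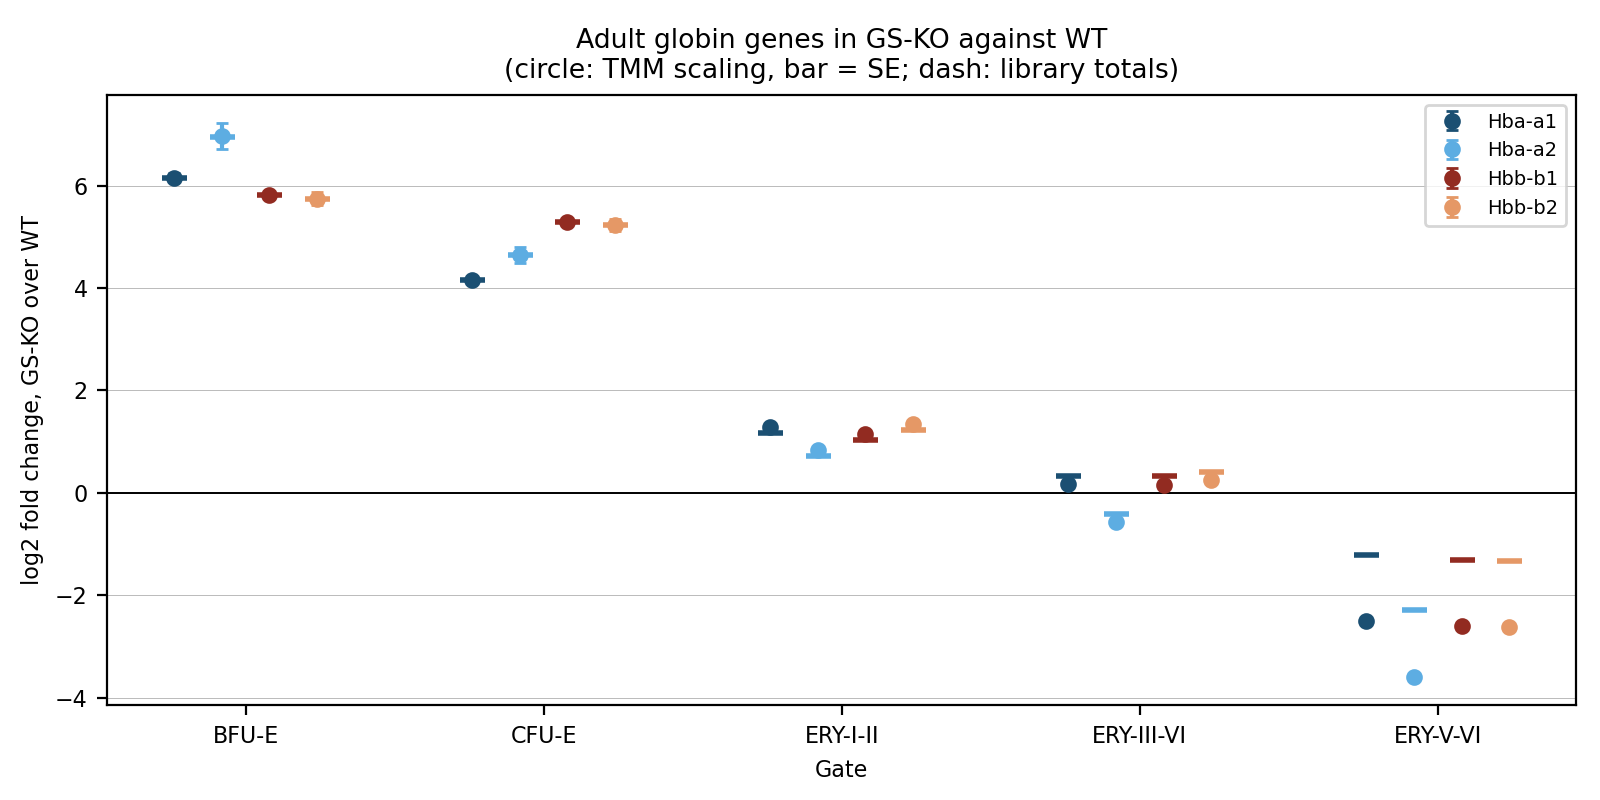
Log2 fold change of GS-KO over WT for the 4 adult globin genes in the 5 gates of the knockout series; circles are values under TMM scaling with bars of 1 SE, and dashes are values scaled by library totals. All 4 genes are above 0 in BFU-E, CFU-E and ERY-I-II and below 0 in ERY-V-VI, and in ERY-III-VI Hba-a2 alone is below 0.

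A difference between gates in the knockout effect was tested directly as the interaction of genotype and gate over the 30 libraries. The 4 adult genes passed (edgeR adjusted p = 3.60e-65 for Hba-a1, 1.34e-60 for Hba-a2, 2.88e-70 for Hbb-b1 and 2.93e-65 for Hbb-b2), where 61.2% of all genes did. Hba-a2 differed from Hba-a1 within the knockout series. The ratio of Hba-a2 to Hba-a1 counts was 0.158, 0.165 and 0.166 in WT and 0.118, 0.12 and 0.118 in GS-KO ERY-I-II. It was 0.215, 0.214 and 0.211 and 0.127, 0.13 and 0.127 in ERY-III-VI, and 0.275, 0.276 and 0.28 and 0.132, 0.13 and 0.13 in ERY-V-VI. WT values were higher in each later gate while GS-KO stayed between 0.118 and 0.132. This ratio was looked at after its values were seen, has no test, and rests on reads that differ between near-identical copies.

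The ratio of Hbb-b2 to Hbb-b1 moved little by comparison, with GS-KO over WT folds of 1.13 for ERY-I-II, 1.06 in ERY-III-VI and 0.984 in ERY-V-VI. The beta to alpha ratio was 1.39, 1.39 and 1.43 in WT and 1.39, 1.37 and 1.36 in GS-KO ERY-I-II, 1.29, 1.25 and 1.27 and 1.4, 1.4 and 1.34 in ERY-III-VI, and 1.16, 1.18 and 1.19 and 1.23, 1.28 and 1.2 in ERY-V-VI. An exact permutation test of 3 against 3 libraries cannot give a p under 0.1, so none of these ratios could pass.

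Among the embryonic genes in the knockout series, Hbb-bh1 was the one that could be tested. In ERY-V-VI the WT libraries held 14, 7 and 11 counts (3.27, 2.24 and 2.33 CPM) and the GS-KO libraries 3, 18 and 8 counts (0.675, 2.44 and 0.935 CPM), and the genotypes overlapped. The log2 fold change was -2.19 ± 0.72 (edgeR adjusted p = 0.0229). The gene met the filter on low counts through its WT libraries, which favours a fall. This call is therefore not counted with those of the adult genes. The call ended with library totals (-0.91, adjusted p = 0.248) and with the replicate block (-2.37, 0.133). It also ended without WT replicate 1, GS-KO replicate 1 or GS-KO replicate 3 (adjusted p = 0.0568, 0.139 and 0.14). The ratio of summed levels was 0.54 (95% exact interval 0.315 to 0.922). Relative to adult globin counts, scaled as for the stage gates, Hbb-bh1 was at 13.4 (95% exact interval 9.17 to 18.9) in WT ERY-V-VI. In GS-KO ERY-V-VI it was at 18.3 (12.3 to 26.3). On that scale the intervals overlap, so Hbb-bh1 did not fall relative to the adult genes. Hbb-bh1 also passed the interaction test (edgeR adjusted p = 0.00988), a call that ended with library totals (0.157) and with no low-count filter (0.0636).

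Hbb-y and Hba-x were too low for the test. Hbb-y had 0, 1 and 1 counts in WT and 7, 0 and 25 in GS-KO ERY-V-VI, a ratio of summed levels of 9.54 (95% exact interval 2.43 to 82.1) in which 1 GS-KO library held most of the counts. Hba-x had 3, 3 and 3 and 7, 3 and 7 counts, a ratio of 1.13 (95% exact interval 0.475 to 2.87).

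WT libraries of the knockout series give a further view of maturation, all from Y-positive libraries. From BFU-E to CFU-E Hba-a1 rose by 1.59 ± 0.18 (edgeR adjusted p = 4.74e-13), while Hbb-b1 (0.38 ± 0.19, 0.0635) and Hbb-b2 (0.28 ± 0.32, 0.435) did not pass and Hba-a2 was below the filter. That is 1 of 3 tested, where 70.5% of all genes passed. From CFU-E to ERY-I-II all 4 rose, by 9.14 to 10.17 on the log2 scale, where 81.8% of all genes passed and 39.9% were higher. From ERY-I-II to ERY-III-VI all 4 rose again, by 2.38 to 2.91 (73.4% of all genes passed, 35.3% higher). From ERY-III-VI to ERY-V-VI they rose by 3.13 to 3.57 (31.2% of all genes passed, 18.4% higher), and scaled by library totals by 1.97 to 2.42. With limma-voom not all 4 passed in that step, as it called 3 of 5 tested globin genes, Hbb-bh1 among the 3. Hbb-bh1 rose in this last step by 3.07 ± 0.72 (edgeR adjusted p = 0.00509), from 7, 3 and 5 to 14, 7 and 11 counts per library. Its levels were 0.73, 0.358 and 0.995 CPM in WT ERY-III-VI and 3.27, 2.24 and 2.33 CPM in WT ERY-V-VI. Relative to adult globin counts, scaled as for the stage gates, Hbb-bh1 was at 13.8 (exact interval 7.7 to 22.7) in WT ERY-III-VI. In WT ERY-V-VI it was at 13.4 (9.17 to 18.9), so it did not rise relative to the adult genes. The gene met the filter on low counts through its ERY-V-VI libraries, which favours a rise. With no low-count filter the estimate was 2.93 (edgeR adjusted p = 0.0146). The call of the filtered fit ended without WT ERY-III-VI replicate 1 (edgeR adjusted p = 0.0508) or replicate 2 (0.0708).

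Genes that act on globin were listed by role. Of 35 tested regulators of globin transcription 14 rose and 7 fell from CFU-E to ERY-I, with a median log2 fold change of 0.40 against 0.052 for all genes, of which 25.4% rose and 20.9% fell. Sox6, a repressor of embryonic globin genes, rose (731 against 33.6 CPM, log2 fold change 4.90 ± 0.50, edgeR adjusted p = 2.55e-05), and so did Nfe2, the erythroid subunit of NF-E2 (230.5 against 73.1 CPM, 2.09 ± 0.29). From ERY-I to ERY-II 15 of 34 rose and 6 fell, where 20.2% of all genes rose and 25.1% fell. Among those that rose was Mafg, a small Maf partner of NF-E2 (95.6 against 47.7 CPM, log2 fold change 2.35 ± 0.32, edgeR adjusted p = 0.000205). From ERY-IV to ERY-V 0 of 33 rose and 3 fell, a share near the 8.83% of all genes called, and 1 of the 3 was Klf1, the activator of the adult beta gene (80.6 against 473 CPM, log2 fold change -1.52 ± 0.33, edgeR adjusted p = 0.0108). In WT of the knockout series Bcl11a, the repressor of embryonic globins, fell from ERY-I-II to ERY-III-VI (22.7 against 150.0 CPM, log2 fold change -2.02 ± 0.082, edgeR adjusted p = 3.61e-21).

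Most enzymes and carriers of heme synthesis rose in each of the first 3 steps, where 18.2%, 25.4% and 20.2% of all genes rose. From BFU-E to CFU-E 10 of 14 rose and 0 fell (median 1.27 against -0.012 for all genes), from CFU-E to ERY-I 12 of 14 rose (1.85 against 0.052), and from ERY-I to ERY-II 12 of 14 (1.60 against -0.35). At ERY-I they included Alas2, the erythroid enzyme of the first step (1588 against 10.5 CPM, log2 fold change 7.69 ± 0.45, edgeR adjusted p = 8.74e-07), and Slc25a37, the mitochondrial iron importer (1461 against 39.8 CPM, 5.65 ± 0.43). Of 13 tested genes of hemoglobin assembly and heme control 9 rose and 0 fell at ERY-I, including Ube2o, a ubiquitin-conjugating enzyme that helps to clear unpaired alpha chains (508 against 57.1 CPM, 3.57 ± 0.35), and Eif2ak1, the heme-regulated kinase that slows globin translation (553 against 165 CPM, 2.20 ± 0.29). Of 11 genes of globin mRNA stability and translation 3 rose and 2 fell, a share near the 46.4% of all genes called, and Cpeb4, a translation factor of terminal maturation, had the largest change (595 against 35 CPM, 4.52 ± 0.32).

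These lists also differed by genotype. In GS-KO BFU-E 9 of 14 heme synthesis genes rose and 0 fell, with Alas2 at 94.8 against 3.18 CPM, log2 fold change 4.90 ± 0.12, edgeR adjusted p = 8.72e-37, while 3 of 35 regulators rose and 10 fell, where 15.4% of all genes rose and 8.56% fell. In GS-KO CFU-E heme synthesis had 3 of 14 genes higher and 7 lower, and 5 of 35 regulators rose and 12 fell, where 17.9% of all genes rose and 11.5% fell. In ERY-I-II heme synthesis had 9 of 14 genes higher and 1 lower, and 12 of 34 regulators rose and 12 fell, where 22.9% and 17.5% of all genes did. The pattern turned in ERY-III-VI, where 11 of 14 heme synthesis genes fell against 2 that rose, and 23 of 34 regulators fell against 3 that rose, where 24.5% of all genes fell and 31.4% rose. In ERY-V-VI 1 heme synthesis gene rose and 12 fell (median -1.01 against 0.15 for all genes), 3 of 33 regulators rose and 17 fell, and 1 of 13 assembly genes rose and 9 fell, where 22.4% of all genes rose and 20.5% fell. The members of ERY-V-VI that fell included Alas2 (7767 against 22356 CPM, log2 fold change -2.82 ± 0.017, edgeR adjusted p = 5.64e-23) and Ube2o (2787 against 7558 CPM, -2.73 ± 0.024). Those that rose included Alas1, the form of the first heme enzyme used outside red cells (105 against 4.0 CPM, 3.50 ± 0.28), and Myb, a transcription factor of immature progenitors (189 against 12.6 CPM, 2.63 ± 0.15). The marker lists above moved with genotype in each of these gates.

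The genes most like the summed adult globins over the means of the 8 stage gates (Pearson r of log2(CPM + 1), 9350 genes compared, a description with no test) were Apol11b (0.995), Alas2 (0.994), Slc25a37 (0.992), 1810058I24Rik (0.989) and Rsad2 (0.987). For Hbb-bh1 they were Gadd45a (0.987), Nt5c3 (0.985), Ifit1 (0.983), Creg1 (0.980) and Serinc1 (0.980), among 12817 genes. For Hba-x they were Cidec (0.992), Fzd1 (0.990), Pcdh15 (0.990), Rspo1 (0.988) and Kcns2 (0.986), and for Hbb-y Casq2 (0.938), Tnni2 (0.927), Wdr65 (0.926), Hfe2 (0.925) and Dlgap1 (0.921). These points are 8 gate means that share libraries and depth. For the embryonic genes they rest on few counts.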

How the data were processed

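RNA of sorted bone marrow cells was sequenced from stranded total RNA libraries for low input, per the labels' protocols. The authors deposited 2 tables of raw read counts, aligned with STAR 2.5.2b to mm10 and counted with HTSeq per the submitters' processing notes. The annotation, the strand setting and the handling of reads that fit several places were not given in the sources used here. Libraries were grouped by their labelled gate and genotype. The members and gene lists were chosen with earlier results of these data known.

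Each comparison was fitted on its own groups with the quasi-likelihood F test of edgeR 4.0.16 under R 4.3.3, after TMM scaling. Low genes were dropped by filterByExpr at a minimum count of 10 and a total of 15. Adjusted p-values follow Benjamini and Hochberg over the genes left, with a threshold of 0.05. SE is the log2 fold change divided by root F. The script was tested on simulated counts. CPM are counts per 1000000 of the library total. The globin share, the beta to alpha ratio and the Hbb-b2 to Hbb-b1 ratio were compared with 32 two-sided exact permutation tests, adjusted together, and the smallest adjusted p was 0.0646. Alternatives were DESeq2 1.42.0, limma-voom (limma 3.58.1), other scalings and filters, 1 fit of all groups, the library sets, a replicate block and each library left out.

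Genes named are the members, Glul, gate markers, up to 2 called genes of each list in each comparison (largest change, mean of at least 5 CPM, no overlap) and the 5 most like the adult sum and each embryonic gene. Replicate numbers were taken as pairing where every same-numbered pair deviated together (r over 0.1): ERY-I against CFU-E (lowest r 0.322), ERY-III against ERY-II (0.416) and ERY-IV against ERY-III (0.223). The highest r was with the own number in 1 of 5, 4 of 4 and 3 of 4 pairs in that order. In ERY-I and CFU-E same-numbered libraries also share their library set, so pairs and sets cannot be told apart there. Replicates with Y-linked transcripts were close (chi-square per degree of freedom of 1.44 to 8.58 for stage and 1.29 to 6.26 for knockout pairs) but differed by more than sampling noise, so each was kept. Sequences come from GENCODE M21 and RefSeq GRCm38.p6.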

Additional observations from a re-analysis of the deposited data

Results flagged for a closer look

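Of 75 pairs of a group and a globin measure, 9 held a library whose gap to the nearest other was large against the range of its group. Chance alone is set to give such a gap in about 1 of 20 groups, and the measures are not independent. In CFU-E replicate 5 was high for Hba-a1 (96.4 CPM, others 30.9 to 44.5), Hba-a2 (19.4 CPM, others 8.08 to 11.3) and Hbb-b2 (168 CPM, others 13.0 to 56.8), and replicate 4 held Hba-x at 2.12 CPM where the other CFU-E libraries held 0. In ERY-V replicate 3 held Hbb-y at 3.47 CPM (others 0 to 0.815), and in ERY-VI replicate 2 held it at 10.9 CPM (others 0.613 to 1.12). The ratio of Hbb-b2 to Hbb-b1 in ERY-VI replicate 2 was 0.187 (others 0.224 to 0.227). The ratio of Hba-a2 to Hba-a1 was low in ERY-I replicate 4 at 0.366 (others 0.458 to 0.527) and in ERY-II replicate 3 at 0.596 (others 0.660 to 0.666).

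The GS-KO effect differed between gates for the 4 adult globin genes in the test of genotype by gate, where 61.2% of all genes passed. The edgeR p-values, Benjamini-Hochberg adjusted, were 3.60e-65 for Hba-a1, 1.34e-60 for Hba-a2, 2.88e-70 for Hbb-b1 and 2.93e-65 for Hbb-b2. The embryonic gene Hbb-bh1 passed this test as well (edgeR adjusted p = 0.00988). The Hbb-bh1 call ended with library totals (edgeR adjusted p = 0.157) and with no low-count filter (0.0636). The adult genes were higher in GS-KO in BFU-E and lower in ERY-V-VI.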

How the results depend on the processing

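Of the alternatives to the values that answer a comparison, 632 kept their direction and side of the threshold or stayed within 1.5 times a count, 35 moved, 14 reversed and 1 newly passed. The 4 adult genes kept their direction and calls in ERY-I against CFU-E, in ERY-II against ERY-I and in GS-KO against WT in every gate but ERY-III-VI, under each alternative run. In ERY-III-VI 1 fit of all groups called 2 of 4 (6985 of 12051 genes called), with Hba-a1 at -0.060 and Hbb-b1 at -0.068. The counts that follow are of genes called among all 7 globin genes, embryonic ones included. In CFU-E against BFU-E 1 was called in the report, where 4031 of 10807 genes were. DESeq2 (4873 of 10807 genes), the replicate block (7342 of 10831), Y-positive libraries alone (7304 of 10831) and limma-voom called 4. With no filter 2 were called. Library totals (3822 of 10807 genes), 1 fit of all groups (380 of 11825), summed triplicates (105 of 12321) and a mean of at least 5 CPM called 0. With a library left out 0 to 2 were called. The number called over all genes thus differed widely between settings too. For ERY-IV against ERY-III the count was 0 (987 of 7238 genes called) and, with the replicate block, 4 (1824 of 7238). For ERY-V against ERY-IV it was 0 (617 of 6990 genes called). It was 2 with DESeq2 (1184 of 6990), Xist-positive libraries alone (406 of 6175) or limma-voom, and 4 with no filter. Hbb-b1 there was -0.0049 with library totals and -0.45 with the block, and Hbb-b2 -0.032 and -0.075. For ERY-VI against ERY-V the count was 2 (394 of 5030 genes called). It was 4 with DESeq2 (889 of 5030), the block (317 of 3783) or limma-voom, and 1 in Xist-positive libraries (65 of 3148). With no filter it was 5, so not all of those were adult genes, and with a library left out 2 to 4. For ERY-III against ERY-II, Hbb-b1 ran from -0.93 to 0.026 and Hbb-b2 from -0.91 to 0.21 with a library left out, lowest without ERY-III replicate 4 and highest without ERY-II replicate 4. For WT CFU-E against BFU-E the count was 1 (7632 of 10826 genes called). It was 2 with no filter or the block (7678 of 10826 with the block) and 3 in 1 fit of all groups (6036 of 12051). With a library left out it was 1 to 3 (2 without WT BFU-E replicate 1 or 2 or WT CFU-E replicate 2, 3 without WT BFU-E replicate 3). For WT ERY-V-VI against ERY-III-VI it was 5 (2507 of 8025 genes called) and, with limma-voom, 3. Hbb-bh1 was called in both (limma-voom adjusted p = 0.00404), so not all 4 adult genes passed with limma-voom.

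The globin share differed by 3.73 percentage points between ERY-V and ERY-IV, by -0.047 (without ERY-V replicate 6) to 7.39 with a library left out and by -5.88 in the replicate block. Without the 10 most abundant other genes it differed by 30.8 points between ERY-VI and ERY-V (exact permutation test, adjusted p = 0.0485). The log2 beta to alpha ratio reversed between ERY-III and ERY-II with Hbb-b1 over Hba-a1 alone (-0.017) or without ERY-II replicate 1 (-0.026, up to 0.13 with another library left out), between ERY-VI and ERY-V in Xist-positive libraries (-0.42) or with summed triplicates (-0.071), and in GS-KO with Hbb-b1 over Hba-a1 alone in ERY-III-VI (-0.0072) and also ERY-V-VI (-0.095). The log2 Hbb-b2 to Hbb-b1 ratio ran from -0.030 to 0.053 between ERY-IV and ERY-III with a library left out (-0.025 without ERY-III replicate 1, -0.017 without ERY-III replicate 2, -0.030 without ERY-IV replicate 4), was -0.092 between ERY-V and ERY-IV in Xist-positive libraries, and ran from -0.27 to 0.037 in GS-KO BFU-E and from -0.16 to 0.016 in GS-KO CFU-E. The cause of these changes was not tested. The replicate block, taken as pairing in 3 stage comparisons only, changed no call of an adult gene other than those given here. Depth limits the embryonic genes, whose highest count in any library was 33.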

Other observations

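The theta-like genes Hbq1a and Hbq1b lie in the alpha cluster beside the adult copies, and their function in the mouse is poorly known. Hbq1b was at 62.8 to 119 CPM in ERY-V and 25.9 to 65 CPM in ERY-VI, and at most 0.193 CPM in CFU-E. Hbq1a was at 15.9 to 21.1 CPM in WT and 4.91 to 7.43 CPM in GS-KO ERY-V-VI, a log2 fold change of -3.00 (edgeR, Benjamini-Hochberg adjusted p = 1.89e-06). Hbb-bh2, a beta-like gene next to Hbb-bh1, had at most 9 counts in any library.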
